A study of Mus musculus with 9 samples.

Results

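The 9 genes described here encode the cyclins and kinases that carry a cell from G1 into S phase. They are the D cyclins Ccnd1, Ccnd2 and Ccnd3, the E cyclins Ccne1 and Ccne2, the kinases Cdk4, Cdk6 and Cdk2, and Cdc25a, a phosphatase that activates cyclin-dependent kinases. They were chosen by gene symbol, and each had 1 probe set carrying that symbol alone, so 9 of 19938 genes with a probe set of their own were members. All 9 were among the 13182 genes bright enough to be tested.

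RNA came from mouse embryonic stem (ES) cells of genotype Dgcr8 -/- and was read on 1-colour microarrays. The cells lack a protein needed to process most microRNA precursors. Of the 9 arrays, 3 came from cells given a let-7c mimic and 3 from cells given a miR-294 mimic, each at 50 nM, and 3 from mock transfected cells. All cells, mock included, carried the Dgcr8 deletion and were grown without leukaemia inhibitory factor (LIF) until harvest at 12 h. Mock cells got no control mimic, so effects of transfected RNA in general are part of every difference from mock. The sources used here do not give the strain or say whether the line was 1 clone. The labels call the arrays biological replicates without saying that they came from separate cultures, so p-values measure the spread between these samples. The number of arrays limits the precision.

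In most cells, D cyclins join Cdk4 or Cdk6 and E cyclins join Cdk2, and these kinases phosphorylate the pocket proteins that hold E2F transcription factors in check. Cdc25a removes inhibitory phosphates from Cdk2 and other cyclin-dependent kinases. ES cells are known for a short G1 phase with high cyclin E and Cdk2 activity, and the miR-290 family, to which miR-294 belongs, is abundant in them. The let-7 family is abundant in differentiated cells, and Ccnd1, Ccnd2, Cdk6 and Cdc25a are among its published targets.

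A microRNA recognises transcripts mainly through its seed, bases 2 to 8, so the mature sequences are shown with the seed in capitals and the rest in lower case, 5′ to 3′. They come from RefSeq (GRCm38.p6). The mimics' own sequences are not in the labels, and the labels do not name an arm; the arms shown are those with the families' known seeds, from chr16:77599672-77599693 (plus strand; let-7c is encoded at a second locus too) and chr7:3220691-3220712 (plus strand).
let-7c-5p: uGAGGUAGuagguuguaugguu
miR-294-3p: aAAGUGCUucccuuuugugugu
miR-295-3p: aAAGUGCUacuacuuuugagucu
miR-295-3p, a neighbour of miR-294 in the same cluster at chr7:3220815-3220837 (plus strand), is shown because its seed is identical and the rest differs. In all, 5 mature names in the table carried the miR-294 seed and 11 the let-7c seed, so the 2 mimics share no seed. Target sites in the transcripts were not analysed here.

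The samples were checked against their labelled cell type. All 8 ES cell markers lay above the 40th percentile of every array, with Pou5f1, which encodes Oct4, between the 98.9th and the 99.0th. On all 3 mock arrays so did 5 of 8 feeder fibroblast markers, 3 of 6 of primitive endoderm, 4 of 6 of trophoblast and 4 of 4 of neurectoderm. That threshold alone does not tell the cell types apart. The lowest ES cell marker reading was the 86.5th percentile (Zfp42), while Krt8, a trophoblast marker, lay between the 83.5th and the 93.2nd. Of 24 markers of feeder fibroblasts, primitive endoderm, trophoblast and neurectoderm, 17 were bright enough to test. With let-7c 3 of these 17 were higher and 2 lower than mock, and with miR-294 2 were higher and 1 lower. Over all tested genes, 28.7% were called with let-7c and 41.9% with miR-294. The marker share was close to the first with let-7c and below the second with miR-294. With let-7c the higher markers were Nes (0.76, adjusted p = 0.00259), Gata3 (0.48, adjusted p = 0.000487) and Gata4 (0.31, adjusted p = 0.000945). The lower ones were Tubb3 (-0.53, adjusted p = 0.000521) and Tfap2c (-0.31, adjusted p = 0.00385). Gata3 was too dim to test under a stricter brightness filter. The calls with miR-294 were those of Col3a1 (0.16, adjusted p = 0.0372), Sox7 (0.36, adjusted p = 0.000134) and Tubb3 (-0.23, adjusted p = 0.033). Col3a1 was not called under 6 of 18 alternatives, among them without miR-294 replicate 3 (0.137) or any 1 mock replicate (0.0793 to 0.0859). Under a further alternative, the stricter filter, Col3a1 was too dim to test. Tubb3 was not called under 8, among them without miR-294 replicates 1 (0.0791) or 3 (0.106) or any 1 mock replicate (0.0562 to 0.0834). Sox7 passed the brightness filter only through the 3 miR-294 arrays, where it was higher (mean 7.08, against 6.71 in mock). Its call therefore rests on that selection. It was too dim to test once any 1 miR-294 array was left out or under a stricter filter. Between the mimics 4 of the 17 were higher and 2 lower with let-7c, where 50.8% of all tested genes were called. Krt8 differed most (0.71 ± 0.16, adjusted p = 0.00252). The lower ones were Tubb3 (-0.30) and Sox7 (-0.31), the latter again through that selection. ES cell markers moved as well: 5 of 8 were lower than mock with let-7c and 4 of 8 higher with miR-294. Their summed log2 level ran from 96.7 to 96.8 over the let-7c arrays, 98.2 to 98.5 over mock and 98.9 to 99.4 over miR-294. The 7 markers too dim to test were Postn, Pdgfrb, Lum, Sox17, Pdgfra, Cdx2 and Elf5. The summed log2 level of the feeder markers ran from 54.3 to 56.9 in mock, 54.6 to 58.0 with let-7c and 55.4 to 57.5 with miR-294, and that of the trophoblast markers from 46.5 to 47.0, 47.1 to 47.9 and 46.4 to 46.9. For primitive endoderm the ranges were 42.2 to 43.0, 43.0 to 43.6 and 43.0 to 43.3, and for neurectoderm 34.7 to 35.1, 35.1 to 35.7 and 34.5 to 35.1. The part of these marker shifts in the results below was not tested. Dgcr8 itself read 9.01 ± 0.08 in mock, 8.90 ± 0.04 with let-7c and 9.09 ± 0.03 with miR-294 (log2, SD, n = 3), which does not check the genotype, since the sources used here do not say which part was deleted.

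Levels below are deposited log2 values, and differences are between group means on that scale, ± the standard error of the fit (limma, all 9 arrays, Benjamini-Hochberg adjusted over the 13182 tested genes, n = 3 arrays per group). A gene was called changed at an adjusted p under 0.05. On all 9 arrays every member lay at or above the 67.2nd percentile of the probe sets, which was the lowest reading of Ccne2 with let-7c. In bulk RNA, fewer cells in the phase that makes a transcript and less of it per cell cannot be told apart.

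Against mock, let-7c lowered 4 of the 9 genes, Cdc25a, Ccnd1, Ccne1 and Ccne2, and raised 1, Cdk6. The other 4, Ccnd2, Ccnd3, Cdk2 and Cdk4, were not called. Over all tested genes 28.7% were called in this comparison (14.8% lower and 13.9% higher), against 55.6% of the 9. MiR-294 lowered 2 genes, Ccnd1 and Ccne2, and raised 2, Ccne1 and Cdc25a; the called share of 44.4% was close to the 41.9% of all tested genes (20.7% higher, 21.1% lower). Between the mimics, 2 genes were higher and 2 lower with let-7c, again 44.4%, against 50.8% of all tested genes (26.2% higher, 24.5% lower). All tested genes include dimmer ones than these 9. Under a stricter brightness filter, at the 60th percentile, 5 of the 9 were called with let-7c, beside 3653 of 9209 genes. With miR-294 4 were called under that filter, beside 4971 of 9209. Both are larger shares than those of all tested genes. The arrays of the groups compared did not overlap for 5 of the 9 genes with let-7c against mock (43.9% of all tested genes), for 4 with miR-294 against mock (53.8%) and for 5 between the mimics (57%). The comparisons with mock share the 3 mock arrays and are given side by side. The median difference of the 9 was -0.09 with let-7c and 0.04 with miR-294, beside 0.02 over all tested genes in both.

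**Figure D1:**
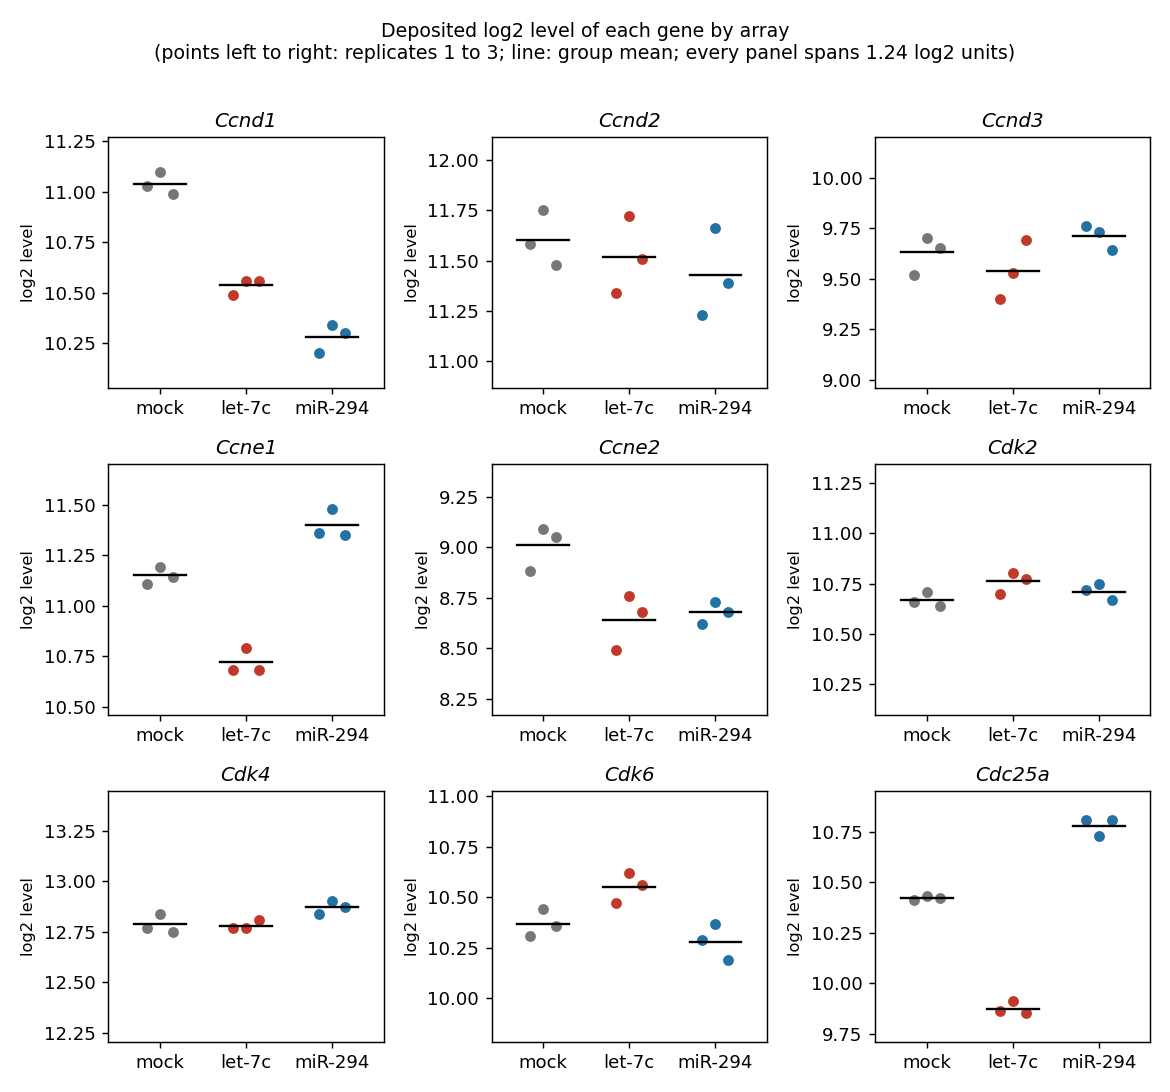
Deposited log2 level of each of the 9 genes on every array, in 1 panel per gene with the same span, so that heights can be compared between panels as differences; points are replicates 1 to 3 and lines are group means. Cdc25a and Ccne1 lie lowest with let-7c and highest with miR-294, Ccnd1 falls from mock to let-7c to miR-294, and the Cdk2 and Cdk4 points stay close together.

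Cyclin D1, the D cyclin that growth factor signals typically induce, was lower with both mimics. Ccnd1 read 11.03, 11.10 and 10.99 in mock, 10.49, 10.56 and 10.56 with let-7c and 10.20, 10.34 and 10.30 with miR-294. The 3 groups did not overlap anywhere, with mock highest and miR-294 lowest. Let-7c changed it by -0.50 ± 0.05 (adjusted p = 5.64e-05), to 70.6% of the mock level. MiR-294 changed it by -0.76 ± 0.05 (adjusted p = 1.05e-06), to 59.1% of the mock level. The direct difference between the mimics, 0.26 ± 0.05, also passed (adjusted p = 0.00132), so the level with miR-294 was below that with let-7c. Of all tested genes, 1.55% fell further with let-7c and 1.68% fell further with miR-294.

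The other D cyclins were not called in the tests counted above, which had no replicate block. Ccnd2, for cyclin D2, read 11.58, 11.75 and 11.48 in mock, 11.34, 11.72 and 11.51 with let-7c and 11.23, 11.66 and 11.39 with miR-294. The groups overlapped, and in each of them the array numbered 2 was the highest. Its difference from mock was -0.08 ± 0.12 with let-7c (95% confidence interval -0.34 to 0.17, adjusted p = 0.641) and -0.18 ± 0.12 with miR-294 (-0.43 to 0.08, adjusted p = 0.239). These intervals are wider than those of any other member, and the one for miR-294 still holds a fall larger than the -0.33 called for Ccne2.

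Ccnd3, for cyclin D3, read 9.52, 9.70 and 9.65 in mock, 9.40, 9.53 and 9.69 with let-7c and 9.76, 9.73 and 9.64 with miR-294. Both mimic groups overlapped mock and each other. The differences from mock were -0.09 ± 0.07 with let-7c (adjusted p = 0.426) and 0.09 ± 0.07 with miR-294 (adjusted p = 0.379). The difference between the mimics was -0.17 ± 0.07 (adjusted p = 0.0781), and it passed under 4 of 18 alternatives, among them without let-7c replicate 3 (0.0135; highest over the alternatives 0.272).

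Within each array, the log2 level of Ccnd1 minus that of a relative shows whether the pair changed unequally. The absolute size of such a value depends on the probes and has no meaning of its own. Ccnd1 minus Ccnd2 lay between -0.65 and -0.49 in mock, between -1.15 and -0.85 with let-7c and between -1.32 and -1.02 with miR-294. Ccnd1 minus Ccnd3 lay between 1.34 and 1.51 in mock, 0.87 and 1.10 with let-7c and 0.44 and 0.65 with miR-294. In both pairs the mock arrays stood apart from both mimics, with Ccnd1 falling relative to the other D cyclin. The exact permutation p was 0.1 for each of these differences from mock (two-sided, n = 3 per group), which is the smallest that 3 arrays against 3 can give, so none could pass 0.05.

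The E cyclins, the partners of Cdk2 at S phase entry, fell together with let-7c and moved apart with miR-294. Ccne1 read 11.11, 11.19 and 11.14 in mock, 10.68, 10.79 and 10.68 with let-7c and 11.36, 11.48 and 11.35 with miR-294. No let-7c array reached the lowest mock array and no miR-294 array came down to the highest. Let-7c changed Ccne1 by -0.43 ± 0.05 (adjusted p = 0.000184), to 74.2% of mock, and miR-294 by 0.25 ± 0.05 (adjusted p = 0.00302), to 119% of mock. Between the mimics the difference was -0.68 ± 0.05 (adjusted p = 1.3e-06), a 1.60-fold lower level with let-7c.

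Ccne2, for cyclin E2, read 8.88, 9.09 and 9.05 in mock, 8.49, 8.76 and 8.68 with let-7c and 8.62, 8.73 and 8.68 with miR-294. All 6 mimic arrays lay below all 3 mock arrays, and the mimic groups overlapped. It changed by -0.36 ± 0.07 with let-7c (adjusted p = 0.00421) and by -0.33 ± 0.07 with miR-294 (adjusted p = 0.00452), to 77.7% and 79.6% of mock. The mimics differed by -0.03 ± 0.07 (95% confidence interval -0.20 to 0.13, adjusted p = 0.732), so a difference of 0.20 between them is within the interval.

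Ccne1 minus Ccne2 within an array lay between 2.09 and 2.24 in mock and between 2.01 and 2.19 with let-7c, where the arrays overlapped. With miR-294 it lay between 2.67 and 2.76, above all arrays of the other groups. The change from mock was -0.07 with let-7c (exact permutation p = 0.5, n = 3 per group) and 0.58 with miR-294 (exact permutation p = 0.1, the smallest possible).

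**Figure D2:**
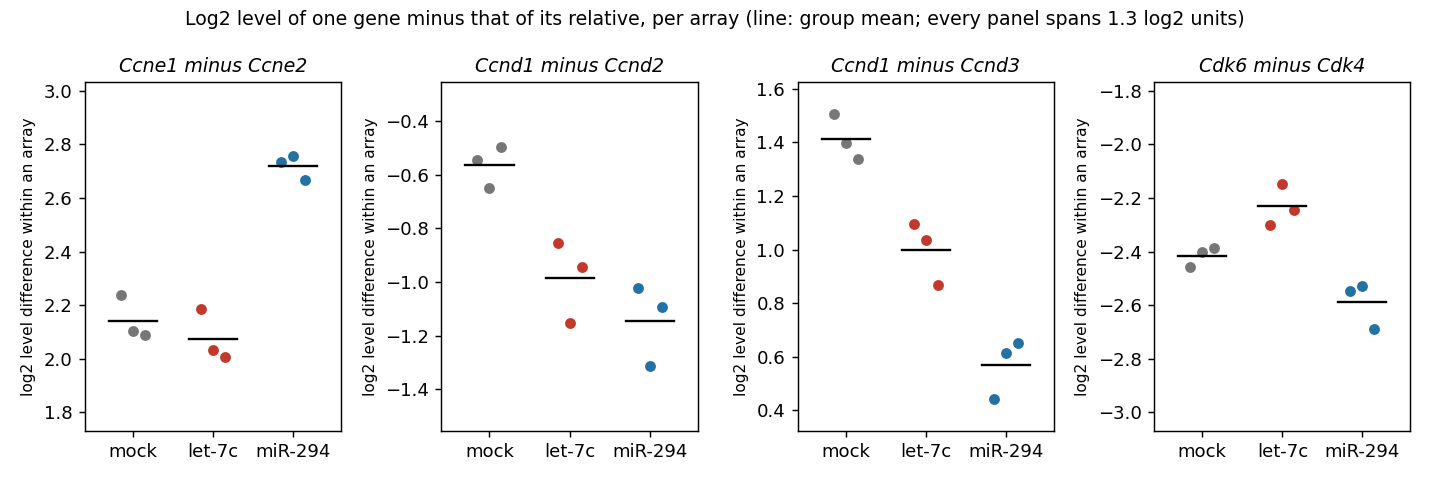
Log2 level of one gene minus that of a related gene within each array, for 4 pairs; points are replicates 1 to 3, lines are group means, and all panels have the same span. The miR-294 arrays stand above the rest for Ccne1 minus Ccne2 (2.67 to 2.76), and both mimics stand below mock for Ccnd1 minus Ccnd2 and Ccnd1 minus Ccnd3.

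Of the 3 kinases, only Cdk6 was called in the tests counted above. Cdk4, a partner of the D cyclins, read 12.77, 12.84 and 12.75 in mock, 12.77, 12.77 and 12.81 with let-7c and 12.84, 12.90 and 12.87 with miR-294. The let-7c arrays overlapped mock and lay just below all miR-294 arrays, by 0.03 at the closest. Its 95% confidence interval against mock was -0.10 to 0.09 with let-7c (adjusted p = 0.956) and -0.01 to 0.18 with miR-294 (adjusted p = 0.15). The difference between the mimics, -0.09 ± 0.04, was not called (adjusted p = 0.122).

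Cdk2, the partner of cyclin E, read 10.66, 10.71 and 10.64 in mock, 10.70, 10.80 and 10.77 with let-7c and 10.72, 10.75 and 10.67 with miR-294. The 3 groups overlapped throughout. The interval of its difference from mock was -0.02 to 0.19 with let-7c (adjusted p = 0.19) and -0.06 to 0.14 with miR-294 (adjusted p = 0.485). For Cdk2 and Cdk4, changes from mock as large as those of Ccne1, a fall of 0.43 with let-7c or a rise of 0.25 with miR-294, lie outside these intervals.

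Cdk6, the other kinase of the D cyclins, was the one member called higher with let-7c. It read 10.31, 10.44 and 10.36 in mock, 10.47, 10.62 and 10.56 with let-7c and 10.29, 10.37 and 10.19 with miR-294. The let-7c arrays lay above all others, with a gap to mock of 0.03. The rise of 0.18 ± 0.06 (adjusted p = 0.0466) was near the threshold, and 27.1% of all tested genes changed by more in this comparison. The call ended without let-7c replicate 2 (adjusted p = 0.14), let-7c replicate 3 (0.109), miR-294 replicate 1 (0.056) or any 1 of mock replicates 1 (0.142), 2 (0.0511) and 3 (0.108). It ended with no filter on dim probe sets too (0.0876; lowest over the alternatives 0.00992). With miR-294 the difference from mock was -0.09 ± 0.06 (adjusted p = 0.262). The difference between the mimics, 0.27 ± 0.06, passed (adjusted p = 0.0031) and under all 18 alternatives (highest adjusted p = 0.0153).

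Cdk6 minus Cdk4 within an array lay between -2.46 and -2.39 in mock, -2.30 and -2.15 with let-7c and -2.69 and -2.53 with miR-294. The 3 groups did not overlap, and the mimics lay on opposite sides of mock, by 0.18 and -0.17 (exact permutation p = 0.1 for each, n = 3 per group, the smallest possible).

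Cdc25a had the largest difference between the mimics of the 9 genes. It read 10.41, 10.43 and 10.42 in mock, 9.86, 9.91 and 9.85 with let-7c and 10.81, 10.73 and 10.81 with miR-294. The groups did not overlap, and mock lay between the mimics with a spread of only 0.01 (SD). Let-7c changed it by -0.55 ± 0.04 (adjusted p = 1.02e-05), to 68.3% of mock, and 1.17% of all tested genes fell further. MiR-294 changed it by 0.36 ± 0.04 (adjusted p = 5.96e-05), to 129% of mock, and 3.96% of all tested genes rose further. With let-7c the level was 53.1% of that with miR-294 (-0.91 ± 0.04, adjusted p = 4.45e-08), and 2.38% of all tested genes differed by more.

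**Figure D3:**
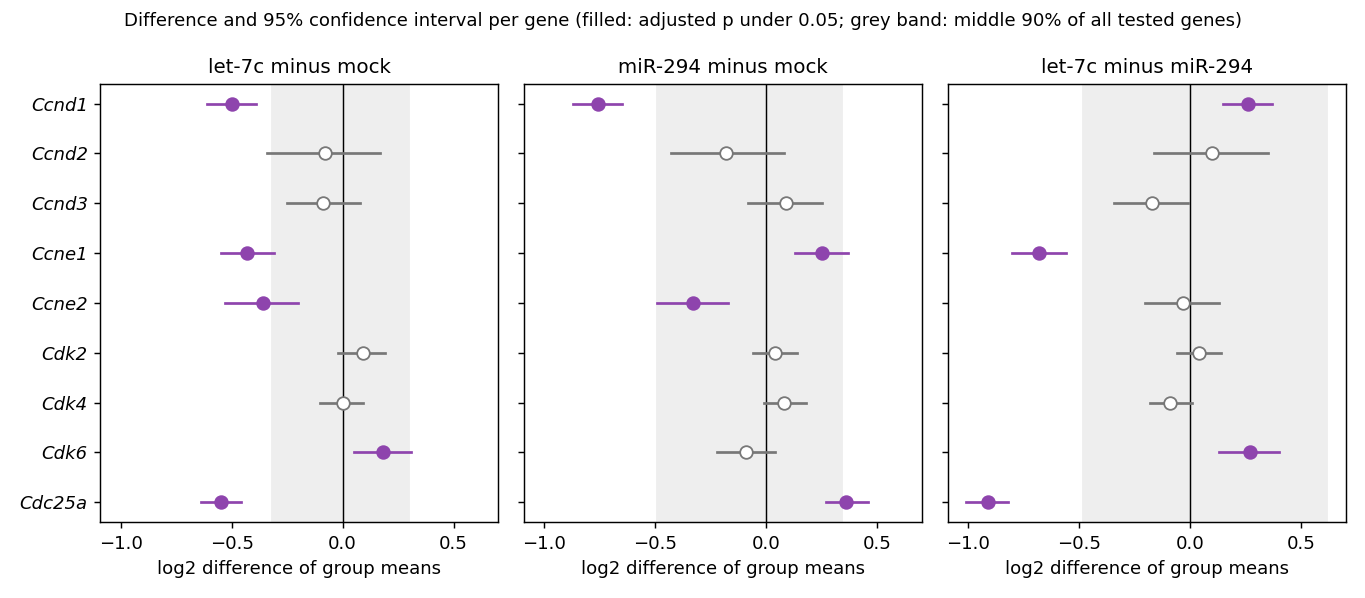
Log2 difference of group means for each of the 9 genes in the 3 comparisons, with its 95% confidence interval; filled points had an adjusted p under 0.05, and the grey band spans the 5th to the 95th percentile of all tested genes (-0.32 to 0.30, -0.49 to 0.34 and -0.48 to 0.62). With let-7c Cdc25a, Ccnd1, Ccne1 and Ccne2 lie below the band, with miR-294 Ccnd1 lies below and Cdc25a above it, and between the mimics Cdc25a and Ccne1 lie below it.

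Cdc25a and Ccne1 were the 2 members called in opposite directions by the mimics. The promoter windows of the members were searched for 2 kinds of short motif, and a part of E2F factors in the opposite calls was not tested. The window was the 250 bases before the gene start in RefSeq (GRCm38.p6). The E2F letters were TTTCCCGC, TTTGGCGC, TTTCGCGC and TTTGCCGC, and the E-box letters, which Myc family proteins are known to bind, were CACGTG. Both strands were read, and the E-box is its own reverse complement. No E2F match overlapped an E-box in these windows. Of 32817 windows of this length, 1.86% held 1 or more of the E2F motifs and 6.02% an E-box. The table held windows for 6 members, Ccnd3 with 2 of them, and none for Ccnd1, Ccnd2 or Ccne2.

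The 3 windows shown are those of the opposed pair and of Cdk4, which was not called in the tests counted above but held the most motifs. Matches are in capitals, 5′ to 3′ on the gene's strand, for Cdc25a at chr9:109875329-109875578 (plus), Ccne1 at chr7:38107491-38107740 (minus) and Cdk4 at chr10:127063285-127063534 (plus).
Cdc25a: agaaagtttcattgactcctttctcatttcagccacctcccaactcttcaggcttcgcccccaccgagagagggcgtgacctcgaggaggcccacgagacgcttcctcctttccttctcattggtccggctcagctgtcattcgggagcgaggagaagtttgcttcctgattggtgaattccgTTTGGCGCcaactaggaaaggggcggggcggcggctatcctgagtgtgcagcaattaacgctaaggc
Ccne1: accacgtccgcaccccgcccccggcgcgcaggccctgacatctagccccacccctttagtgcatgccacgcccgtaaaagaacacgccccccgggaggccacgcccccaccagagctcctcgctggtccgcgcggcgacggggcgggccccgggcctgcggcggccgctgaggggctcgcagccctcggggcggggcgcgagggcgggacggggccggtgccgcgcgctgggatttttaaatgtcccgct
Cdk4: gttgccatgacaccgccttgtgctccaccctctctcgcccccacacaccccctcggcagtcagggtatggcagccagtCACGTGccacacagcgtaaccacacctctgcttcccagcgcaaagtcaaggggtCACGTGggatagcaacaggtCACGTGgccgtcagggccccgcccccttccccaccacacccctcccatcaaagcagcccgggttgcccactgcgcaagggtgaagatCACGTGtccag
The Cdc25a window held 1 E2F match, TTTGGCGC, beginning 67 bases before the start, and no E-box. The Ccne1 window held neither, which says only that these letters are not in this window. The Cdk4 window held 4 E-boxes, beginning 172, 118, 98 and 11 bases before the start, and no E2F match. Among the others, Cdk2 held 1 E2F match on the opposite strand, Cdk6 held 1 E-box, and both Ccnd3 windows held neither. A match is a description of the letters and not of binding.

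Some genes followed a called member closely across the 9 arrays. Likeness was the root mean square difference over the arrays after each gene was centred on its own mean, among 12565 tested genes that were neither members nor predicted or clone names. The arrays share the group differences, so these values describe the pattern and carry no test. Nearest to Ccnd1 were Lcor (0.0509) and Zfyve26 (0.0649), which differed from mock by -0.49 each with let-7c and by -0.81 and -0.76 with miR-294. For Ccne1 they were Ppat (0.0322), which encodes the first enzyme of purine synthesis, and Polr3d (0.0376), for an RNA polymerase III subunit; these differed from mock by -0.45 and -0.46 with let-7c and by 0.27 and 0.25 with miR-294.

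Rrp12 (0.0447), a ribosome biogenesis gene, and Alkbh4 (0.0484) were nearest to Cdc25a, with differences of -0.55 and -0.58 with let-7c and of 0.36 and 0.31 with miR-294. Nearest to Ccne2 were Notum (0.0482) and Lbr (0.0556), which differed from mock by -0.29 and -0.36 with let-7c and by -0.30 and -0.27 with miR-294. For Cdk6 they were Fam91a1 (0.0331) and Anapc16 (0.0358), with differences of 0.17 and 0.16 with let-7c and of -0.09 and -0.14 with miR-294.

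The genes around these members in the G1 to S pathway were described in 6 lists with 58 tested genes. With let-7c 4 of the 58 rose and 22 fell, a called share of 44.8% beside 28.7% of all tested genes. With miR-294 14 rose and 20 fell, 58.6% beside 41.9%. Between the mimics 17 were higher and 22 lower with let-7c, 67.2% beside 50.8%. All tested genes include dimmer ones. Under the stricter brightness filter 3653 of 9209 genes were called with let-7c and 4971 of 9209 with miR-294, which are larger shares. The part of brightness in the list shares, here and below, was not tested.

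E2F target genes of S phase entry were the list with the most falls with let-7c. Of 16 tested, 10 fell and none rose against mock (median -0.16, beside 0.02 over all tested genes, of which 14.8% were called lower). The falls were led by Cdc6, which loads the replicative helicase (-0.57 ± 0.05), Rrm2, a ribonucleotide reductase subunit (-0.53 ± 0.06), and Tk1, thymidine kinase (-0.40 ± 0.05). The count of falls was 5 without mock replicate 2 and 6 under quantile normalization. With miR-294 6 of the 16 rose and 2 fell (median 0.07), where 41.9% of all tested genes were called. The count of rises was 3 without miR-294 replicate 2 and also without miR-294 replicate 3. Orc1, an origin recognition subunit, rose the most (0.63 ± 0.04), and the falls were those of Rrm1 (-0.37 ± 0.05) and Pola1 (-0.32 ± 0.05). Between the mimics 12 of 16 were lower with let-7c and 2 higher (median -0.32), beside 24.5% lower and 26.2% higher over all tested genes. Orc1 (-0.85), Cdc6 (-0.68) and Tk1 (-0.57) differed most.

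Among 13 pocket protein and E2F genes, 4 fell and none rose with let-7c, a called share near the 28.7% of all tested genes. The largest falls were those of E2f5 (-1.06 ± 0.06, adjusted p = 7.64e-07) and E2f6 (-0.86 ± 0.06), which encode repressive E2F factors, and of E2f3 (-0.36 ± 0.05). With miR-294 6 fell, led by the pocket protein genes Rbl2 (-1.22 ± 0.09) and Rb1 (-0.71 ± 0.06) and by E2f7 (-0.70 ± 0.06), and 3 rose. Between the mimics 5 were higher and 5 lower with let-7c, the largest being Rbl2 (1.31), E2f6 (-1.14) and Rb1 (0.85). Of all tested genes, 41.9% were called with miR-294 and 50.8% between the mimics.

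Of 5 tested genes for CDK inhibitors, which block the kinases of this set, 2 rose with let-7c and none fell: Cdkn2b (0.42 ± 0.07, adjusted p = 0.00102) and Cdkn2d (0.32 ± 0.05, adjusted p = 0.000453), both inhibitors of Cdk4 and Cdk6. With miR-294 1 fell, Cdkn1b, which encodes p27 (-0.22 ± 0.06, adjusted p = 0.0128), and none rose. That call ended without miR-294 replicate 2 (adjusted p = 0.0542), and a second inhibitor was called without miR-294 replicate 3 and under 2 other alternatives. All 3 of these were called higher under let-7c in the direct comparison of the mimics, Cdkn1b not so without let-7c replicate 3 (adjusted p = 0.0549) or miR-294 replicate 2 (0.0563). The called shares of all tested genes were 28.7% with let-7c, 41.9% with miR-294 and 50.8% between the mimics. The 1 call of 5 with miR-294 is a smaller share than that of all tested genes.

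Among 14 genes that govern turnover of the cyclins and of Cdc25a, 5 fell and 1 rose with let-7c, and 6 fell and 3 rose with miR-294. Of all tested genes, 28.7% and 41.9% were called in these 2 comparisons. With let-7c the count of falls was 3 without let-7c replicate 1, without mock replicate 2 and under 2 other alternatives. Skp2, for the ubiquitin ligase subunit that targets p27, fell with let-7c (-0.57 ± 0.06) and with miR-294 (-0.49 ± 0.06). Its cofactor gene Cks1b rose with miR-294 (0.44 ± 0.04). Chek1, for a kinase that marks Cdc25a for destruction, fell with let-7c (-0.32 ± 0.05) and was called higher with miR-294 (0.14 ± 0.05, adjusted p = 0.0499). The call with miR-294 ended without let-7c replicate 3, miR-294 replicates 1 or 2 or any 1 mock replicate (0.0588 to 0.154) and under 2 other alternatives. Chek2, for a related kinase, fell with both let-7c (-0.28 ± 0.05) and miR-294 (-0.35 ± 0.05). Fbxo4, which encodes an F-box protein reported to act on cyclin D1, rose with let-7c (0.37 ± 0.10, adjusted p = 0.0213), but was not called without let-7c replicates 1 (0.0515) or 3 (0.0808) or mock replicates 2 (0.0781) or 3 (0.0809). Its probe set was dim, with means of 7.09 in mock and 7.45 with let-7c, and was not tested under a stricter brightness filter.

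Of 5 genes for the CDK-activating kinase and for kinases that inhibit CDKs, 2 fell with let-7c: Ccnh (-0.35 ± 0.05) and Cdk7 (-0.17 ± 0.06), both for subunits of the CDK-activating kinase. The call of Cdk7 (adjusted p = 0.043) ended under 12 of 18 alternatives, among them leaving out any 1 array other than let-7c replicate 3 (0.0503 to 0.139). With miR-294 2 fell, Wee1, for a kinase that opposes Cdc25 phosphatases (-0.37 ± 0.04), and Ccnh (-0.18 ± 0.05), and 2 rose, of which Mnat1 changed most (0.21 ± 0.05). The call of Ccnh with miR-294 (adjusted p = 0.0163) ended without miR-294 replicate 3 (0.0537) or mock replicates 2 (0.0651) or 3 (0.0545), and 1 rise was left without miR-294 replicate 2, mock replicate 1 or mock replicate 3. Among 5 genes of the later cyclins, Cdk1 and its phosphatases, 1 relative of Cdc25a, Cdc25b, moved opposite to it. Cdc25b rose with let-7c (0.22 ± 0.05, adjusted p = 0.00777) and fell with miR-294 (-0.78 ± 0.05, adjusted p = 8.08e-07), while Cdc25a fell and rose. Cdc25c, another relative, was not called with let-7c (0.05 ± 0.06, adjusted p = 0.579) or miR-294 (-0.08 ± 0.06, adjusted p = 0.308). Ccna2, for cyclin A2, fell with both mimics (-0.26 ± 0.05 and -0.18 ± 0.05), and Ccnb2 fell with miR-294 (-0.22 ± 0.05). The counts of these 2 lists stand beside 28.7% of all tested genes called with let-7c and 41.9% with miR-294.

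**Figure D4:**
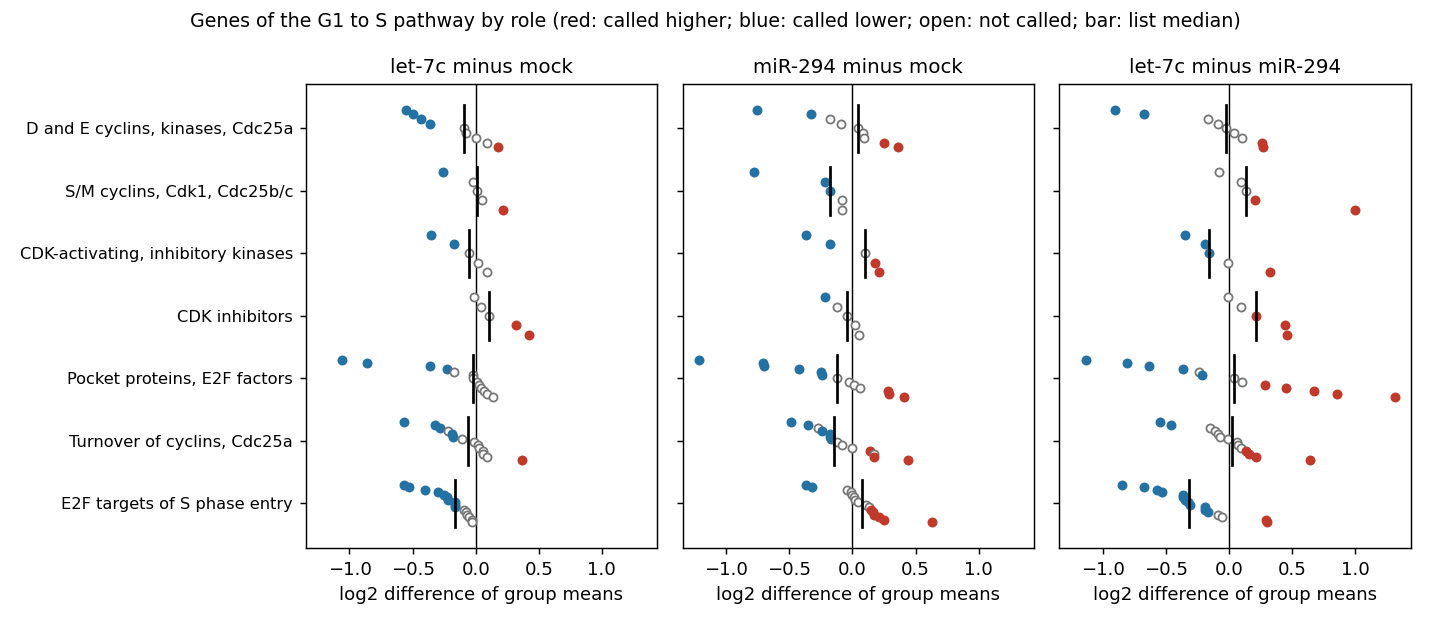
Log2 difference of group means for each tested gene of the 9 members and of the 6 surrounding lists, in the 3 comparisons; red points were called higher, blue points called lower, open points not called, and black bars are list medians. The E2F targets of S phase entry lie mostly to the left with let-7c (10 of 16 called lower than mock, beside 14.8% of all tested genes). The pocket protein and E2F genes spread the widest.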

How the data were processed

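Each of the 9 arrays has 1 value per probe set in the deposited table. Values were taken as log2 intensities, as deposited: per the submitters' processing notes the authors used GCRMA, which corrects background, normalizes arrays and summarises probes. The sources used here do not give its version or settings, and no header states the scale, so "log2" rests on the range of the values. Array medians lay between 7.36 and 7.41, and the lowest correlation within a group was 0.995.

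Genes were named from GEO's platform annotation, using the 21789 of 35557 probe sets with 1 symbol. Each gene took the probe set with the highest mean. Genes were tested where 3 or more arrays exceeded their own 40th percentile. Differences came from limma 3.58.1 in R 4.3.3 (lmFit and eBayes, no trend), in 1 fit of 3 group means over all 9 arrays with two-sided tests. The script was tested on simulated data. Exact permutation tests used scipy 1.17.1.

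Named genes were the 9 members, up to 3 called genes per list and comparison with the largest change, and the 2 genes most like each called member. Other genes, such as Dgcr8 and Pou5f1, serve as checks. Members and lists were chosen with earlier results of these data known. Ccna1 and Cdkn2c were dim and not tested, and Ccnb1 and Cdkn1a were not analysed here. Alternatives covered the choice of probe set, the filter, normalization, an intensity trend, a replicate block, the arrays fitted and leaving out each array.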

Additional observations from a re-analysis of the deposited data

How the results depend on the processing

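Over 18 alternatives, the counts of called members stayed within 1.5 times the reported ones in all 3 comparisons, and 463 of 486 values for single members kept their direction and their side of the threshold, while 7 lost the call, 9 gained it and 7 changed sign. No value that changed sign had been called. The calls of Ccnd1, Ccne1, Ccne2 and Cdc25a, and that of Cdk6 between the mimics, held under all 18. Of 71 list values that the naming rule picked, markers included, 64 were called under every alternative in which their gene was tested. Some genes, Sox7 among them, were too dim to test under some alternatives. For the lists, the alternatives were run after seeing the data. The cause of the changes below was not tested.

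The call lost was that of Cdk6 with let-7c: its rise over mock was 0.18 with no filter, where more genes were tested, and 0.14 to 0.22 when 1 array was left out. Calls gained under quantile normalization were those of Cdk2 with let-7c over mock (0.12) and Ccnd3 between the mimics (-0.18), and under 75th percentile centring those of Ccnd3 (-0.19) and Cdk4 (-0.11) between the mimics. With an intensity trend and robust prior, Cdk4 was called with miR-294 over mock (0.083) and between the mimics (-0.086), and Ccnd3 between the mimics (-0.17). Leaving out 1 array gave -0.25 to -0.099 for Ccnd3 between the mimics, called without let-7c replicate 3. Signs turned for Cdk4 with let-7c under quantile normalization (0.020) and with 1 array left out (-0.022 to 0.022), and with 1 array left out for Ccnd2 with let-7c (-0.18 to 0.0082) and between the mimics (-0.00028 to 0.21) and for Ccne2 between the mimics (-0.092 to 0.041).

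With a replicate block, Ccnd2 was called with miR-294 (-0.18, limma adjusted p = 0.0296), no other member's call changed, and the genes called over the whole array went from 3783 to 4557, from 5521 to 6185 and from 6694 to 7231. The labels do not say that same-numbered replicates were made together. Deviations from the group means correlated between 0.029 and 0.418 for same-numbered arrays, and an array correlated best with its own number in 16 of 18 cases, which is a hint from the data and not the design.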
